A study of Mus musculus with 16 samples.

Results

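The genes described here mark astrocytes and radial glia, the progenitors that give rise to neurons and later to astrocytes, and include receptors and effectors of the Notch pathway. They are 34 of the 18502 gene symbols on the array. They were chosen as every probe whose gene symbol in the platform annotation was one of the 34 names, which gave 36 probes, since Slc1a3 and Slc4a4 had 2 probes each. Connexins and sodium pumps were left out of the list. All but Sox2 had a value on at least 1 array, which left 33 genes.

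Staggerer mutant mice, in which part of Rora is deleted (the gene encodes RORα, a nuclear receptor), were compared with control mice at postnatal days 5 to 6. The labels give the C57BL/6 strain for the controls and name no further allele or agent. Somatosensory cortex and the ventrobasal thalamic nucleus (VB) of 4 litters were each compared on 2 arrays with the dyes Cy3 and Cy5 swapped, which gave 8 arrays in each tissue. All cells of these mice carry the deletion, so the mutation is not limited to a glial cell type, and the number of animals behind an RNA sample is not given in the sources used here.

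Radial glia line the ventricle of the embryonic brain, and after neurogenesis many of them turn into astrocytes. Notch receptors keep radial glia in the progenitor state through the transcription factor RBPJ and its targets Hes1 and Hes5. In the first postnatal week cortical and thalamic astrocytes multiply, mature and begin to express the transporters, enzymes and water channels by which they clear glutamate and buffer ions around synapses.

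Each value is a log ratio between the channels, taken here as log2 although the base is not stated. Which RNA carried which dye is known from the labels, but not which RNA is the numerator. The columns were first used as deposited, as if all ran 1 way, and the swapped arrays of a litter were averaged to 1 value, so the replicate was the litter. A second reading, called the dye reading below, took every column as Cy5 over Cy3, so that arrays with mutant RNA in Cy3 were turned and a positive value stands for a higher signal in the mutant. If the columns were Cy3 over Cy5, every sign of the dye reading would swap. The readings cannot both hold. If all columns ran 1 way by genotype, a mean in the dye reading would be a difference between dyes, not genotypes. If each column were a ratio of the dyes, the same would apply to the means of columns as deposited. At most 1 of these sets of calls can therefore measure genotype, and which of them does was not tested. For these reasons only the sign of a ratio is given, with no statement on which genotype had more RNA. Since the files hold ratios, they give no level of any marker, and the dissected tissues could not be checked against their markers.

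A VB array held 17711 to 22207 values and a cortex array 19633 to 22580, and the number of arrays limits the precision. In VB, arrays with the same dye assignment correlated at r = 0.345 to 0.597 across probes, and arrays with opposite assignments at -0.531 to -0.274. The same ranges in cortex were 0.111 to 0.278 and -0.241 to -0.034. Rora itself did not pass the test in columns as deposited, with a mean log2 ratio of -0.13 ± 0.12 (SD, n = 4 litters) in VB (limma adjusted p = 0.555) and -0.45 ± 0.26 (SD, n = 3) in cortex (limma adjusted p = 0.358). It was 0.42 in VB in the dye reading (limma adjusted p = 0.0047) and -0.13 in cortex (limma adjusted p = 0.755). Where its probe lies relative to the deletion is not given in the sources used here, so Rora does not settle the direction of the columns.

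Because RORα is the deleted factor and RBPJ the effector of Notch, the promoter windows of the genes were searched for their motifs. RefSeq windows of 300 bases, 250 before and 50 after the start of a transcript (GRCm38.p6), were matched by symbol for 29 of the 34 genes, in 37 windows. Aqp4, Clu, Hes1, Sox9 and Sparcl1 had none. The core motif of ROR receptors, AGGTCA on either strand, stood in 9 of the 37 windows (24.3%) and in 16.3% of all 32851 windows. With a T before it, TAGGTCA, a longer match that lies within the first count, it stood in 3 windows (8.11%), against 2.61% of all windows. The 3 windows belong to Fabp7, Cst3 and Glul, and they are printed with 11 bases on either side and the motif in capitals.
Fabp7: tgggaggatctTGACCTActccgctaacc
Cst3: taagaggtatcTGACCTAcaaggcaagaa
Glul: gtttcctggccTAGGTCAgccaatcaagg
The Fabp7 stretch lies at chr10:57784741-57784769 on the plus strand, and its motif, read on the opposite strand, begins 171 bases before the start. For Cst3 it lies at chr2:148875609-148875637 on the minus strand, with the motif 114 bases before the start, also on the opposite strand. The Glul motif reads on the same strand as the gene, 58 bases before the start, in chr1:153899860-153899888 on the plus strand.

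The motif of RBPJ, GTGGGAA on either strand, was found in 4 of the 37 windows (10.8%) and in 6.38% of all windows. It was in windows of Aldoc, Hes5 and Mt2. Hes5, a target of Notch, held it in both orientations, which is why its stretches are shown.
Hes5, 226 bases before the start: gggcgagcgcgTTCCCACagcccggacat
Hes5, 83 bases before the start: ggccgccgagtGTGGGAAcggccgcggcg
These stretches lie at chr4:154960686-154960714 and chr4:154960829-154960857, both printed on the plus strand, which is the strand of the gene. The start is that of a transcript. The annotated Hes5 gene spans chr4:154960626-154962372, so both stretches lie inside it and not upstream of its first base. A match of letters is a description and does not show that the factor binds there, and a window without a match says only that the letters are absent from those 300 bases.

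In VB, 28 of the 34 genes had values in at least 3 of the 4 litters and were tested. Of these, 18 had values in all 4 litters and 10 in 3. Aqp4, Hes5, Mt1, Notch1, Sox2 and Sparcl1 did not pass this filter. One gene, Ednrb, passed an adjusted p of 0.05 over all 16067 features, where 0.311% of all features passed. At an unadjusted p under 0.05 there were 4 genes, against 10.2% of all features, which is near the background share. Ratios were positive for 11 genes and negative for 17, where 52.4% of all features were positive. The median was -0.04 against 0.01 for all features, and 17 means lay within 0.1 of 0. Without litters 1 to 4 in turn the median was -0.058, -0.007, -0.005 and -0.038, over 20, 24, 18 and 20 tested genes. The dye reading turned the split to 18 positive and 10 negative, where 50.6% of all features were positive. The ratio kept 1 sign in all measured litters for 8 genes, 4 positive and 4 negative, where 24.4% of all features did. With whole tissue as the source, a difference in the number of cells of a type and a difference in RNA per cell cannot be told apart.

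In cortex 28 genes were tested, again 18 with values in all 4 litters and 10 in 3. Fgfr3, Mlc1, Mt1, Slc1a2, Sox2 and Sox9 did not pass the filter. None passed the adjusted threshold, where 0.0605% of all 16521 features did. At an unadjusted p under 0.05 in limma there were 5 genes, against 7.89% of all features. The split was 8 positive to 20 negative, where 49.1% of all features were positive. The median was -0.06 against -0.003 for all features. Without litter 2 the split was 11 to 11 with a median of 0.001. Without litters 1, 3 and 4 in turn the median was -0.15, -0.14 and -0.07. The fits without litters 1 to 4 tested 19, 22, 21 and 20 of the genes. The dye reading gave 15 positive and 13 negative, with a median of 0.008, where 51.5% of all features were positive. Ratios kept 1 sign in all measured litters for 5 genes, all negative, against 20.3% of all features. The litters differed more for these genes than for features at large, with a median SD of 0.31 against 0.21. In VB these medians were 0.15 and 0.13.

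**Figure D1:**
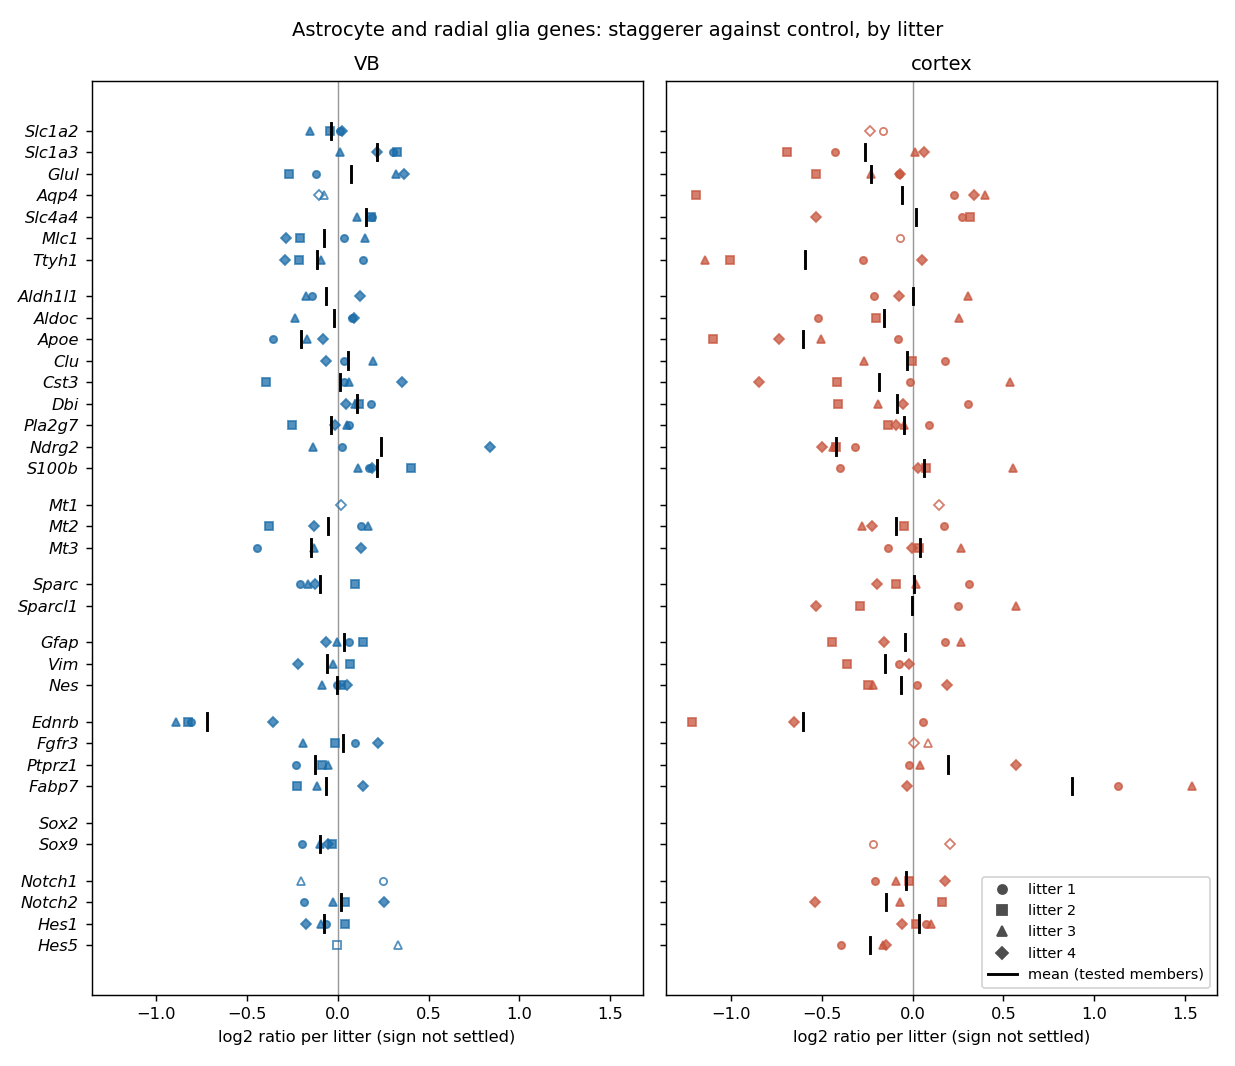
Log2 ratio of each gene in each litter, on the x axis, for VB (left) and cortex (right), with columns as deposited. Genes are grouped by role from top to bottom, symbols mark the litter, black bars the mean of tested genes, and open symbols genes with values in under 3 litters. Ednrb lies to the left of 0 in every VB litter, and the points spread more widely in cortex than in VB.

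Ednrb, the endothelin receptor type B of radial glia and astrocytes, had the most negative ratio of the list in VB. The gene lies at chr14:103814615-103844508 (GRCm38.p6). Its log2 ratio in VB was -0.81, -0.82, -0.89 and -0.36 in litters 1 to 4. All 4 litters were negative, with litter 4 nearer to 0 than the rest. The mean was -0.72 ± 0.24 (SD, n = 4 litters), a ratio of 0.607, with a limma adjusted p of 0.0102.

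The arrays behind the Ednrb value differed with the dyes. With mutant RNA in Cy3 the VB values were -1.20, -1.66, -1.32 and -0.94, all clearly negative. With mutant RNA in Cy5 they were -0.41, 0.02, -0.47 and 0.23, on both sides of 0. The means of the assignments were -1.28 and -0.16. Ednrb therefore passed in the dye reading with the opposite sign, at 0.56 ± 0.21 (SD, n = 4; limma adjusted p = 0.000884). The call as deposited was lost without litter 1 (limma adjusted p = 0.0983), without litter 3 (0.0561), with only the arrays with mutant RNA in Cy5 (0.446), when litters with 1 array were counted (0.0847) and in 1 fit of both tissues (0.206). In these fits 0.111%, 0.189%, 6.48%, 0.032% and 0.164% of all features passed, in that order, against 0.311% with all litters and arrays. Over the 15 planned settings other than the dye reading, that of the text included, Ednrb passed in 10. In the dye reading it passed without each litter in turn, where 10.7% to 15.1% of all features passed.

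In cortex Ednrb was measured in 3 litters, at 0.06, -1.22 and -0.65 in litters 1, 2 and 4. One litter was at about 0 and the others were negative, so the spread was wide. The mean of -0.60 ± 0.64 (SD, n = 3) did not pass (limma adjusted p = 0.421). The dye assignments had nearly equal means in cortex, -0.61 and -0.60, and the dye reading gave -0.001 (limma adjusted p = 0.998).

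Fabp7, the brain fatty acid binding protein that marks radial glia and young astrocytes, had the highest mean of the list in cortex in columns as deposited. Its values were 1.13, 1.54 and -0.03 in litters 1, 3 and 4. Litters 1 and 3 were far above 0 and litter 4 was not. The mean was 0.88 ± 0.82 (SD, n = 3), which did not pass (limma adjusted p = 0.263). The dye reading gave -0.42 ± 0.18 (SD, n = 3; limma adjusted p = 0.132), the most negative value of the list in that reading. By array, mutant RNA in Cy3 gave 1.59, 0.57, 2.11 and 0.19 in litters 1 to 4, and mutant RNA in Cy5 gave 0.67, 0.97 and -0.25 in litters 1, 3 and 4. Both assignments leaned the same way, and the array in litter 2 without a partner was positive as well. In VB the same probe gave -0.22, -0.12 and 0.14 in litters 2 to 4, with a mean of -0.07 ± 0.19 (SD, n = 3; limma adjusted p = 0.851).

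The remaining genes of this role are receptors. Ptprz1, a receptor-type phosphatase of radial glia and oligodendrocyte precursors, was at -0.23, -0.09 and -0.05 in litters 1 to 3 of VB, all negative but small. Its mean there was -0.12 ± 0.09 (SD, n = 3; limma adjusted p = 0.646), and in cortex it was 0.20 ± 0.32 (SD, n = 3; limma adjusted p = 0.806). Fgfr3, a fibroblast growth factor receptor of ventricular progenitors and astrocytes, had a VB mean of 0.03 ± 0.17 (SD, n = 4), with positive and negative litters. In cortex only litters 3 and 4 had values for it, 0.08 and 0.007.

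Among the genes of glutamate uptake, Slc1a3 (GLAST), the transporter of radial glia and young astrocytes, was positive in every VB litter. Its VB values were 0.31, 0.33, 0.01 and 0.22, with a mean of 0.22 ± 0.14 (SD, n = 4; limma adjusted p = 0.35). Averaged over its 2 probes, the dye assignments were alike, with means of 0.20 and 0.23, so the dye reading gave -0.02. Cortex values were -0.43, -0.69, 0.01 and 0.06, where litters 1 and 2 were negative and litters 3 and 4 near 0. The cortex mean was -0.26 ± 0.36 (SD, n = 4; limma adjusted p = 0.682). The 2 probes of Slc1a3 had similar VB means, 0.20 and 0.24, and differing cortex means, -0.01 and -0.51. By dye the probes went opposite ways in VB. The first had means of 0.36 with mutant RNA in Cy5 and 0.03 in Cy3, and the second 0.04 and 0.43. The second probe was at -0.07 in litter 3 of VB.

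Slc1a2 (GLT-1), the main glutamate transporter of mature astrocytes, was at -0.04 ± 0.08 (SD, n = 4) in VB, with litters on both sides of 0. It had 2 cortex litters, at -0.16 and -0.24. Glul, glutamine synthetase, which turns the glutamate taken up into glutamine, was negative in all 4 cortex litters, at -0.08, -0.53, -0.23 and -0.07. Litter 2 was the most negative of them, and the mean of -0.23 ± 0.22 (SD, n = 4) did not pass (limma adjusted p = 0.678). The cortex arrays of Glul with mutant RNA in Cy5 were all negative. Those with mutant RNA in Cy3 were at 0.36, -0.89, 0.26 and 0.002. In VB Glul was at 0.07 ± 0.32 (SD, n = 4), negative in litters 1 and 2 and positive in litters 3 and 4.

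Ttyh1, a membrane protein of the tweety family found in neural progenitors and astrocytes, was among the most negative genes in cortex. Its values there were -0.27, -1.01, -1.14 and 0.05. Litters 1 to 3 were negative and litter 4 was near 0, and in litter 4 both arrays were close to 0 (0.06 and 0.05). The mean of -0.59 ± 0.58 (SD, n = 4) did not pass (limma adjusted p = 0.31), but without litter 4 it was -0.81 and passed (limma adjusted p = 0.0224). In the fit without litter 4, 0.861% of all cortex features passed, against 0.0605% with all litters. In VB Ttyh1 was at -0.11 ± 0.19 (SD, n = 4), negative in 3 of 4 litters.

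Aqp4, the water channel of astrocyte endfeet, was positive in 3 cortex litters, at 0.23, 0.40 and 0.34 in litters 1, 3 and 4. Litter 2 stood apart at -1.19, and both of its arrays were negative (-1.35 and -1.04), so the mean of -0.06 ± 0.76 (SD, n = 4) describes no litter. VB had 2 litters for Aqp4, -0.08 and -0.10. Mlc1, a membrane protein of the same endfeet, was at -0.08 ± 0.20 (SD, n = 4) in VB and had 1 litter in cortex, at -0.07.

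Slc4a4, a sodium bicarbonate cotransporter, was positive in all 3 of its VB litters, at 0.19, 0.18 and 0.10. Its mean of 0.16 ± 0.05 (SD, n = 3) did not pass (limma adjusted p = 0.529). In litter 4 both VB arrays were negative, at -0.38 and -0.23, but no probe had a value on both, so the litter was not counted. When unpaired arrays were counted, the VB mean of Slc4a4 was -0.02 (limma adjusted p = 0.954). The 2 probes of the gene went opposite ways by dye. One had VB means of -0.53 with mutant RNA in Cy5 and 1.03 with mutant RNA in Cy3, and the other 0.29 and -0.25. Not every litter had both probes, so the litter values of Slc4a4 mix them in unequal shares. The cortex mean was 0.02 ± 0.48 (SD, n = 3), from probes at -0.23 and 0.39.

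Of the metabolic and secreted proteins of astrocytes, Apoe, the apolipoprotein by which astrocytes export cholesterol, had the smallest unadjusted p of the list in cortex in columns as deposited. It was at -0.08, -1.10, -0.51 and -0.74 in the cortex litters. All 4 were negative, and the 8 arrays were negative too, from -1.64 to -0.015. The mean was -0.60 ± 0.43 (SD, n = 4), a ratio of 0.658, which did not pass (limma adjusted p = 0.212), and the dye reading gave 0.10 ± 0.30 (SD, n = 4; limma adjusted p = 0.794). In VB Apoe was at -0.36, -0.17 and -0.08 in litters 1, 3 and 4, with a mean of -0.20 ± 0.14 (SD, n = 3; limma adjusted p = 0.461). There the sign followed the dye, with means of 0.17 for mutant RNA in Cy5 and -0.57 for Cy3, and the dye reading gave 0.37 (limma adjusted p = 0.0128).

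Ndrg2, a cytoplasmic protein of the hydrolase fold that marks astrocytes, had the narrowest spread of the negative genes in cortex in columns as deposited. Its cortex values were -0.32, -0.42, -0.44 and -0.50, close together and all negative. The mean of -0.42 ± 0.08 (SD, n = 4), a ratio of 0.748, did not pass (limma adjusted p = 0.218), and the dye reading gave 0.19 ± 0.42 (SD, n = 4; limma adjusted p = 0.605). The arrays were less even than the litters, since in litter 4 they were 0.31 and -1.31. In VB Ndrg2 was at 0.02, -0.14 and 0.84 in litters 1, 3 and 4, so its mean of 0.24 ± 0.52 (SD, n = 3; limma adjusted p = 0.657) rested on litter 4.

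S100b, a calcium-binding protein of astrocytes, was positive in all 4 VB litters, at 0.17, 0.40, 0.11 and 0.19. The mean was 0.22 ± 0.13 (SD, n = 4), which did not pass (limma adjusted p = 0.339). The positive values came mostly from the arrays with mutant RNA in Cy3, whose mean was 0.47 against -0.03 for Cy5. Cortex litters of S100b ranged from -0.40 to 0.55, with a mean of 0.06 ± 0.39 (SD, n = 4). Dbi, the diazepam binding inhibitor, which carries acyl-CoA, was also positive in all 4 VB litters, at 0.18, 0.11, 0.09 and 0.04. Its mean of 0.11 ± 0.06 (SD, n = 4) did not pass (limma adjusted p = 0.607), and the cortex mean was -0.09 ± 0.30 (SD, n = 4). In VB the sign of Dbi followed the dye. Every array was positive with mutant RNA in Cy5 and negative with Cy3, with means of 0.37 and -0.15.

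The other genes of this role had means within 0.2 of 0. Aldh1l1, a folate enzyme used as a marker of all astrocytes, was at -0.06 ± 0.16 (SD, n = 3) in VB and 0.004 ± 0.27 (SD, n = 3) in cortex. Aldoc, the aldolase of astrocytes, was at -0.02 ± 0.18 (SD, n = 3) and -0.16 ± 0.39 (SD, n = 3). Clu, the secreted chaperone clusterin, was at 0.06 ± 0.13 (SD, n = 3) and -0.03 ± 0.23 (SD, n = 3). For each of these 3 genes the litters lay on both sides of 0 in both tissues. Cst3, the secreted protease inhibitor cystatin C, was at 0.01 ± 0.31 (SD, n = 4) in VB and -0.19 ± 0.59 (SD, n = 4) in cortex, where litters reached from -0.85 to 0.53. Pla2g7, a lipase that inactivates platelet-activating factor, was at -0.04 ± 0.15 (SD, n = 4) and -0.05 ± 0.10 (SD, n = 4).

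Metallothioneins bind zinc and copper, and Mt3 is the brain form. Mt2 was at -0.06 ± 0.25 (SD, n = 4) in VB and -0.09 ± 0.20 (SD, n = 4) in cortex. In both tissues its sign followed the dye, with means of -0.39 and 0.28 in VB and -0.41 and 0.22 in cortex for mutant RNA in Cy5 and Cy3. Mt3 was at -0.15 ± 0.29 (SD, n = 3) in VB and 0.04 ± 0.17 (SD, n = 4) in cortex. Mt1 had 1 litter in each tissue, at 0.02 in VB and 0.15 in cortex.

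Sparc and Sparcl1 (hevin) are secreted matrix proteins by which astrocytes act on synapse formation. Sparc was negative in 3 of 4 VB litters, with a mean of -0.10 ± 0.13 (SD, n = 4), and at 0.01 ± 0.22 (SD, n = 4) in cortex. Sparcl1 had a cortex mean of -0.001 ± 0.50 (SD, n = 4), from litters between -0.53 and 0.57. It had no VB litter because no array with mutant RNA in Cy5 held a value.

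The intermediate filaments Gfap, Vim and Nes form the cytoskeleton of astrocytes and radial glia, and none of them passed. Gfap, the filament of mature astrocytes, was at 0.03 ± 0.09 (SD, n = 4) in VB and -0.04 ± 0.33 (SD, n = 4) in cortex. Vim, vimentin, was negative in its 3 cortex litters, at -0.08, -0.36 and -0.02, with a mean of -0.15 ± 0.18 (SD, n = 3; limma adjusted p = 0.839). The cortex means of Vim were -0.28 with mutant RNA in Cy5 and -0.02 in Cy3, with arrays on both sides of 0 in each. Its VB mean was -0.06 ± 0.15 (SD, n = 3). Nes, nestin, the filament of progenitors, was at -0.005 ± 0.06 (SD, n = 4) in VB and -0.06 ± 0.21 (SD, n = 4) in cortex.

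Sox9, a transcription factor of glial fate, was negative in all 4 VB litters, between -0.20 and -0.03, with a mean of -0.10 ± 0.07 (SD, n = 4; limma adjusted p = 0.667). The single VB arrays of Sox9 lay on both sides of 0 in both dye assignments, from -0.47 to 0.27. Its 2 cortex litters, -0.22 and 0.20, had opposite signs. Sox2, the progenitor factor, gave no value on any array.

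Within the Notch pathway, the target Hes5 was negative in its 3 cortex litters, at -0.39, -0.17 and -0.15 in litters 1, 3 and 4. The mean of -0.24 ± 0.14 (SD, n = 3) did not pass (limma adjusted p = 0.706), and it came from the arrays with mutant RNA in Cy3, at -0.49 against 0.02. Hes5 had 2 VB litters, -0.007 and 0.33. Hes1, the other target, was at -0.07 ± 0.09 (SD, n = 4) in VB and 0.03 ± 0.07 (SD, n = 4) in cortex. Of the receptors, Notch2 was at 0.02 ± 0.18 (SD, n = 4) in VB and -0.15 ± 0.36 (SD, n = 3) in cortex. Notch1 had a cortex mean of -0.04 ± 0.16 (SD, n = 4) and 2 VB litters of opposite sign, 0.25 and -0.20.

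The swapped arrays allow the dye assignments to be compared for each gene. In VB 9 of the 28 tested genes had the same sign in both assignments, 3 positive and 6 negative, against 32.5% of all features. Slc1a3, Ndrg2 and Glul were the positive ones. With mutant RNA in Cy3, the VB arrays of Ndrg2 were at -0.19, -0.96, -0.53 and 1.18 in litters 1 to 4. Those of Glul were at -0.05, -0.70, 0.08 and 0.95, so the Cy3 means of both genes rested on litter 4. In cortex it was 10 of 28, 2 positive and 8 negative, against 46.3% of all features. The VB share is close to that of all features. Most of the genes changed sign with the dyes in each tissue (19 in VB and 18 in cortex).

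**Figure D2:**
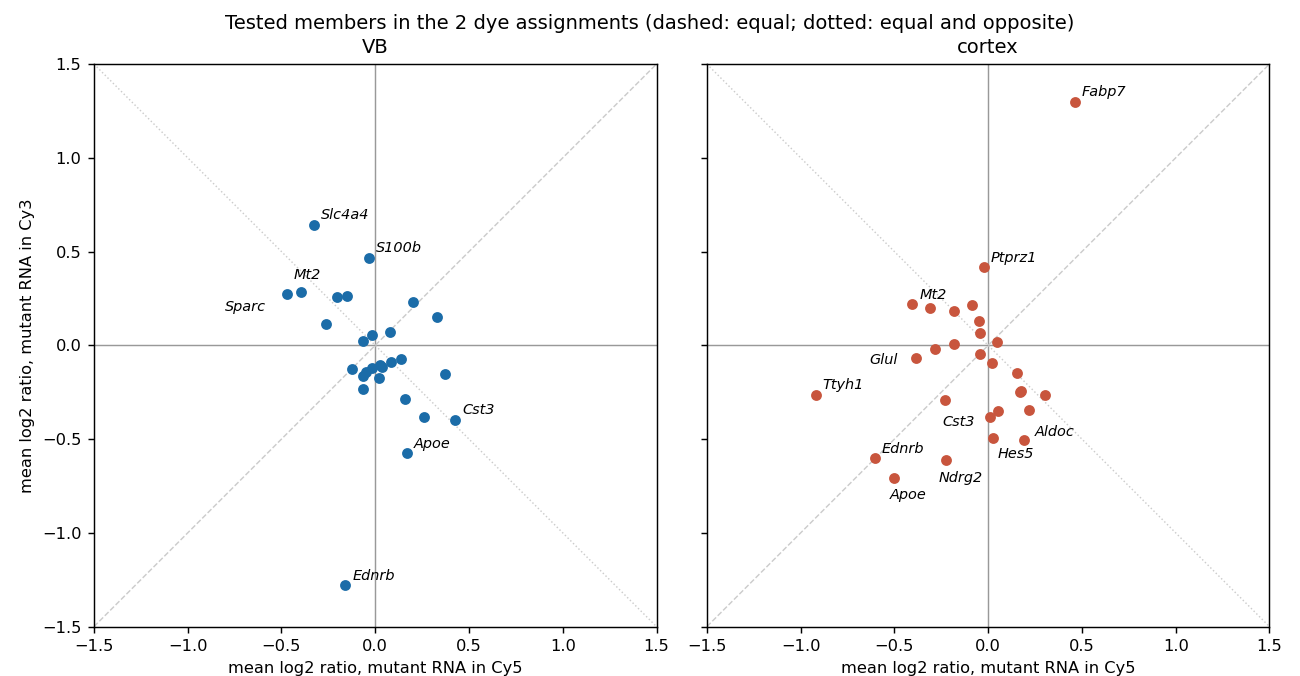
Mean log2 ratio of each tested gene on arrays with mutant RNA in Cy5 (x axis) and in Cy3 (y axis), for VB (left) and cortex (right), over litters with both arrays. Points in the lower left or upper right of a panel have 1 sign in both assignments, and points near the dotted line are equal and opposite. Ednrb in VB lies at -0.16 and -1.28, and in cortex Ednrb, Apoe, Ndrg2 and Ttyh1 lie in the lower left and Fabp7 in the upper right.

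In the dye reading 9 of the 28 genes passed in VB, where 17.3% of all features passed. Ednrb (0.56), Cst3 (0.41), Apoe (0.37), Vim (0.32) and Dbi (0.26) were positive. Slc4a4 (-0.48), Sparc (-0.37), Mt2 (-0.34) and Fgfr3 (-0.23) were negative. For Slc4a4 this mean again rests on probes of opposite sign. The count was 4, 7, 4 and 5 without litters 1, 2, 3 and 4, where 18 to 24 of the genes were tested. Over all features the shares in these fits were 10.7%, 15.1%, 12.8% and 14.1%. In cortex no gene of the list passed in the dye reading in limma, against 1.57% of all features. Without regard to sign, the cortex values of the dye reading had a median of 0.19 for these genes and 0.11 for all features, and in VB 0.10 and 0.12.

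**Figure D3:**
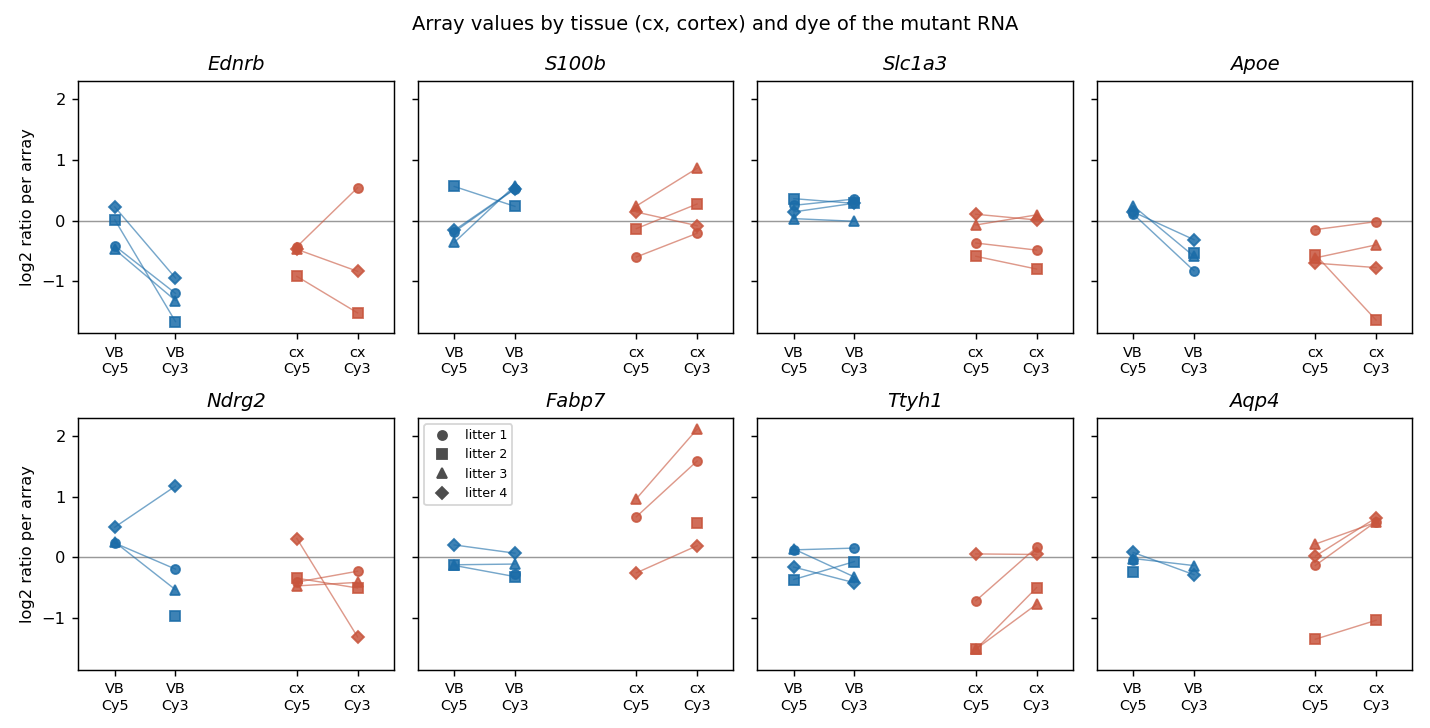
Log2 ratio on each array (y axis) for 8 genes, in VB (blue) and cortex (red, cx), with the dye of the mutant RNA on the x axis. Symbols mark the litter and lines join the swapped arrays of a litter. Ednrb is more negative with mutant RNA in Cy3 in every VB litter, Fabp7 is more positive with Cy3 in its 3 paired cortex litters, and Aqp4 shows litter 2 apart from the rest in cortex.

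The difference between the tissues was tested for the 24 genes measured in at least 3 litters of both. Tissue and labelling method cannot be told apart, since cortex RNA was labelled by aminoallyl coupling and VB RNA after amplification by template-switching PCR. None of the 24 passed in limma, where 0.0985% of 12178 features did. At an unadjusted p under 0.05 there were 3 genes, against 9.04% of all features. Signs were the same in both tissues for 10 genes, 8 negative and 2 positive. In columns as deposited VB minus cortex was above 0 for 17 of the 24, and for 52.6% of all features. The dye reading gave 12 above and 12 below 0, where 47.9% of all features were above.

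The 4 genes with the smallest unadjusted p are those whose litter values are given above. For Ndrg2 VB minus cortex was 0.66 ± 0.20 (SE; limma adjusted p = 0.338), with the VB mean resting on litter 4. Fabp7 had -0.95 ± 0.31 (SE; limma adjusted p = 0.36), the one of the 4 with a more positive cortex. Slc1a3 and Ttyh1 had 0.48 ± 0.16 and 0.48 ± 0.22 (SE; limma adjusted p = 0.381 and 0.56). Ednrb, called in VB, differed between the tissues by -0.12 ± 0.24 (SE; limma adjusted p = 0.934), so its call in VB alone does not show a tissue difference.

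No gene of the list passed for VB minus cortex in the dye reading either, against 3.73% of all features. With litter as a replicate block in that reading, where 3.33% of all features passed, 2 did, Ednrb at 0.61 (limma adjusted p = 0.0445) and Slc4a4 at -0.78 (limma adjusted p = 0.0342).

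**Figure D4:**
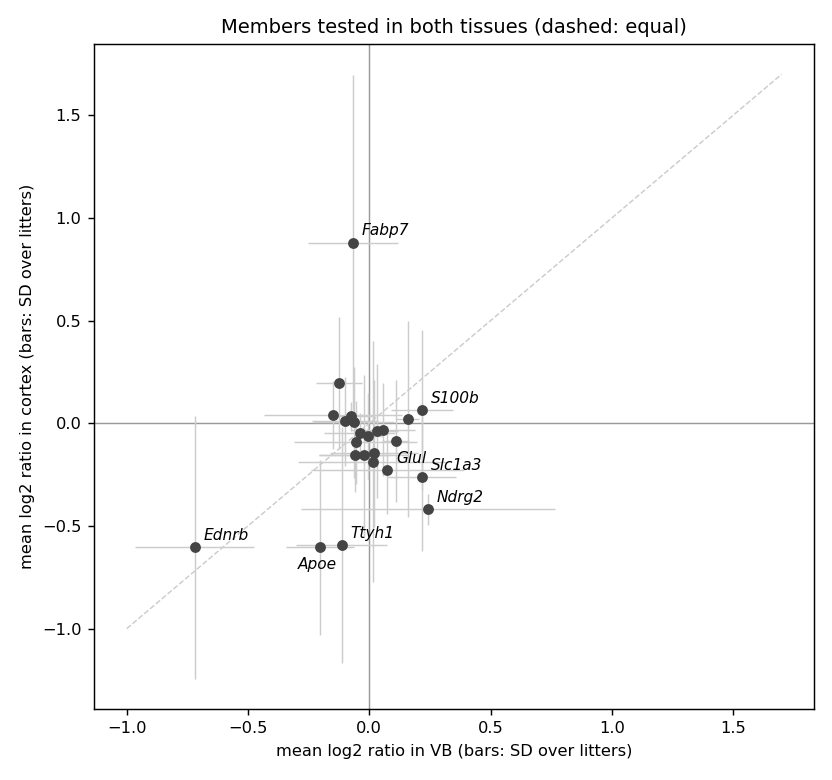
Mean log2 ratio in VB (x axis) and in cortex (y axis) of the 24 genes tested in both, with columns as deposited and bars for the SD over litters. Most genes lie within 0.25 of 0 in both tissues, while Ednrb is negative in both and Fabp7 lies above the rest in cortex.

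Other genes of the same pathways did not pass in columns as deposited. In the dye reading, where 17.3% of all VB features and 1.57% of cortex features passed, 4 of 27 further Notch pathway genes, 8 of 25 further astrocyte genes and 1 of 24 further radial glia genes passed in VB. In cortex 1 of 20 Notch pathway genes and 1 of 18 radial glia genes passed in that reading. Of 27 Notch pathway genes outside the list tested in VB, 10 were positive and 17 negative (median -0.11), 5 had an unadjusted p under 0.05 in limma and none passed. Aph1a, a subunit of the γ-secretase that cleaves Notch, was at -0.24 ± 0.04 (SD, n = 3; limma adjusted p = 0.325), and the ligand Dll4 at -0.24 ± 0.13 (SD, n = 3; limma adjusted p = 0.381). With mutant RNA in Cy5 and Cy3, the VB means of Aph1a were -0.63 and 0.14, of opposite sign, and those of Dll4 -0.09 and -0.38. In cortex 8 of 20 were positive and 12 negative (median -0.03), with Dll4 at -0.32 ± 0.16 (SD, n = 4; limma adjusted p = 0.448) and the protease Adam10 at 0.29 ± 0.19 (SD, n = 4; limma adjusted p = 0.537). Dll4 was negative in every measured litter of both tissues, though its cortex means were 0.005 with mutant RNA in Cy5 and -0.65 in Cy3.

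Of further astrocyte genes, 8 of 25 were positive in VB and 6 of 22 in cortex, with medians of -0.02 and -0.04. Cbs, an enzyme of sulfur metabolism, was at -0.42 ± 0.43 (SD, n = 4) and Itih3 at 0.15 ± 0.13 (SD, n = 3) in VB, and the sphingosine phosphate receptor S1pr1 and the matrix proteoglycan Ncan were at -0.28 ± 0.30 and -0.27 ± 0.26 (SD, n = 4) in cortex. By dye, the VB means of Itih3 were -0.39 with mutant RNA in Cy5 and 0.69 in Cy3, and those of Cbs -0.26 and -0.58. Further genes of radial glia and progenitors were positive in 11 of 24 cases in VB and 9 of 18 in cortex. The cytokine receptor subunit Il6st was at 0.58 ± 0.47 (SD, n = 3) and the progenitor surface protein Prom1 at 0.13 ± 0.18 (SD, n = 4) in VB. For mutant RNA in Cy5 and Cy3 the means were -0.12 and 1.28 for Il6st and 0.06 and 0.21 for Prom1. In cortex the proliferation marker Mki67 was at 0.62 ± 0.50 (SD, n = 3), with litters 1, 3 and 4 at 0.79, 1.02 and 0.06, and the adhesion molecule Nrcam was at 0.27 ± 0.13 (SD, n = 4). With mutant RNA in Cy5 and Cy3, the cortex means of Mki67 were 0.17 and 1.08, and those of Nrcam 0.21 and 0.33. Fabp7 had the same order of litters as Mki67 in cortex, but Nes and Hes5 did not, and a shared pattern was not tested.

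The ligands and enzymes of the endothelin system, to which Ednrb belongs, showed no call in either reading. In VB 4 were tested, with Edn1 at 0.16 ± 0.05 (SD, n = 3) and Edn2 at 0.16 ± 0.14 (SD, n = 3). In cortex 5 were tested, with Ece2 at -0.19 ± 0.34 (SD, n = 4) and Edn1 at 0.17 ± 0.21 (SD, n = 4).

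Markers of other cells in the dissected tissue were set beside these genes, and their part in the results was not tested. No gene of neurons, oligodendrocyte lineage, microglia, blood vessels, meninges with choroid plexus and ependyma, or blood cells passed in either tissue in limma in columns as deposited. In the dye reading 17.3% of all VB features and 1.57% of cortex features passed. There 3 of 11 neuronal, 2 of 7 oligodendrocyte lineage, 2 of 10 vessel, 2 of 8 meninges and 2 of 4 blood cell genes passed in VB. None of 7 microglial genes passed in VB in that reading, and none of these lists' genes in cortex. In VB the list medians lay between -0.07 (meninges, 1 of 8 positive) and 0.03 (microglia, 4 of 7 positive). In cortex they lay between -0.35 (blood cells, 2 genes, both negative) and 0.02 (meninges, 7 of 11 positive). In VB the genes with the smallest p were Slc17a7 (0.40) and Nefl (-0.25) of neurons, Olig1 (-0.15) and Cspg4 (-0.15), P2ry12 (-0.13) and Ctss (-0.11), Rgs5 (-1.10) and Slco1a4 (-0.12), Dcn (-0.16) and Col1a1 (-0.13), and Alas2 (-0.13) and Hbb-bt (-0.11). In cortex they were Tubb3 (0.54) and Syt1 (-0.58), Pdgfra (-0.11) and Olig2 (-0.09), C1qa (-0.25) and Cx3cr1 (-0.14), Slco1a4 (-0.21) and Rgs5 (-0.16), Col1a2 (-0.61) and Aqp1 (0.34), and Hbb-bt (-0.53) and Alas2 (-0.16). These are means over both dye assignments, which had opposite signs for some of the genes and the same sign for others. In VB, Olig1 was at 0.45 with mutant RNA in Cy5 and -0.76 in Cy3, and Rgs5 at -1.05 and -1.15. The vascular Rgs5 value in VB rests on litter 3 at -2.91. Col1a2, a fibroblast collagen of the meninges, was negative in all 4 cortex litters (limma adjusted p = 0.0887).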

How the data were processed

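RNA of staggerer and control mice was compared on 16 arrays with 2 channels, in 4 litters and 2 tissues. The deposited values are log ratios, taken as log2. The log base, numerator, scanner, background correction and the authors' normalization were not given in the sources used here. Per the labels' protocols, cortex and VB RNA were labelled by different methods. No channel intensity was used, which leaves signal over background unknown.

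Of 24107 probes, 3738 had no symbol, and probes of a symbol were averaged. A litter needed a value on each of its swapped arrays, which were averaged, and features with at least 3 litters were tested. limma 3.58.1 in R 4.3.3 (lmFit, eBayes) tested the mean ratio against 0, two-sided, with Benjamini-Hochberg adjustment over all features of a tissue and a threshold of 0.05. It was tested on simulated data. Litters are taken as separate samples, as the labels number them, and p-values measure the spread between litters.

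The labels give the same 4 litters in both tissues, so the numbers pair the samples. The main fit of VB minus cortex compared the litter values of the tissues without this pairing, and litter as a block was an alternative. The correlations between VB and cortex deviations of the same litter were -0.002, -0.016, -0.011 and 0.029 over 4247 features. For every VB litter the highest correlation was with a cortex litter of another number. All genes of the list are named. Values in every litter are given for genes called in columns as deposited, the 8 with the smallest unadjusted p in each tissue and the 4 for VB minus cortex. Of each other list, the 2 with the smallest p in a tissue are named with their means. Genes, lists and tests were chosen with earlier results of these data known. Promoter sequences are from RefSeq (GRCm38.p6). Motif searches used Python 3.11.15 and pandas 2.3.3. One further probe, named 2900019G14Rik by the platform and now Slc1a2, was not counted, since its platform symbol is not in the list.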

Additional observations from a re-analysis of the deposited data

Results flagged for a closer look

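Among 36 combinations of a gene and a tissue with 4 litters, 2 held a litter whose gap to the nearest other exceeded Dixon's 95% critical value for the share of the range, and chance gives about 1 in 20. Ednrb in VB was at -0.36 (-0.3585) in litter 4, with the other litters between -0.89 and -0.81. Without litter 4 its mean was -0.84 (limma adjusted p = 0.00115), in a fit where 0.834% of VB features passed, against 0.311% with all litters. Aqp4 in cortex was at -1.19 (-1.1920) in litter 2, with the other litters between 0.23 and 0.40. The cause of either gap was not tested.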

How the results depend on the processing

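The count of genes called in VB, 1 in columns as deposited, was 9 in the dye reading, 3 with only the arrays with mutant RNA in Cy5 (6.48% of all features), 3 with only those in Cy3 (8.02%), 0 when unpaired arrays were counted and 0 in 1 fit of both tissues. Leaving out each litter gave 0 to 1 in VB, where 0.111% to 0.834% of all features passed. In cortex it gave 0 to 1, and the call without litter 4 was Ttyh1. That cortex fit called 0.861% of all features, against 0.0605% with all litters. In the dye reading, settings added after seeing the data gave 9 with 1 probe a gene (18.4% of all features). They gave 4, 7, 4 and 5 without litters 1 to 4 (10.7%, 15.1%, 12.8% and 14.1%). The median of the list in VB, -0.04, became 0.0503 in the dye reading and -0.0912 with only mutant RNA in Cy3. For VB minus cortex, the fit with litter as a replicate block called 0 genes of the list and 16 of all features, against 0 and 12 without the block. In the dye reading with the block, added after seeing the data, 2 were called (3.33% of all features). The sign turned in the dye reading for 6 of the 8 named VB genes, past the threshold for Ednrb (0.56, adjusted p = 0.000884 in limma), Apoe (0.37) and Slc4a4 (-0.48) and not for S100b (-0.25), Slc1a3 (-0.02) and Ptprz1 (0.003). It turned for 5 of the 8 named cortex genes, Apoe, Ndrg2, Fabp7, Slc1a3 and Hes5, none past the threshold. Some of the other planned settings alter only the filter or the variance estimate, so a mean keeps its sign in them by construction. Counting those too, 89 of 96 values of the named VB genes kept their sign and 99 of 99 cortex values did. The exceptions in VB were in Apoe, Dbi, Ndrg2, S100b and Slc4a4. The causes were not tested, though leaving out a litter also lowers the number of features tested. Without channel intensities, what signal over background limits is unknown.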
